A study of Mus musculus with 96 samples.

Results

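Ddit4l, Rasd2 and 8 other genes of the mTOR pathway (Ddit4, Rheb, Mtor, Tsc1, Tsc2, Sesn1, Sesn3 and Deptor) were followed across 6 mouse genotypes in striatum and cortex. They were taken by gene symbol from a table of 48795 genes, and all 10 had enough reads to be tested in both tissues. Ddit4l was selected on its level in these data, since it was among the genes with the lowest Q140 striatal expression relative to controls. The other members were selected for their place in its pathway, with earlier results of these data known. The difference between Q140 and wild-type striatum is therefore given for every member as a description, with no test. For Ddit4l the same holds in all 3 striatal comparisons of Q140 with its control. The other members are tested in the Msh6+/- and Msh6-/- striata. Since they were chosen with earlier results known, those adjusted p-values are not independent of the choice.

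The mTOR kinase, encoded by Mtor, works in complexes that sense nutrients, energy and growth factors and set the pace of protein synthesis and autophagy. The small GTPase Rheb activates mTOR complex 1 at the lysosome, and the complex of Tsc1 and Tsc2 switches Rheb off. Ddit4 (also called REDD1) and its relative Ddit4l (REDD2) are stress-induced inhibitors of mTOR signalling that act through the Tsc complex. The sestrins, among them Sesn1 and Sesn3, restrain mTOR complex 1 through the amino acid sensing machinery, and Deptor binds mTOR directly and inhibits it. Rasd2 encodes Rhes, a small GTPase enriched in the striatum that binds mutant huntingtin and can activate mTOR. The neurons of the striatum that degenerate earliest in Huntington's disease are its spiny projection neurons, the main site of Rhes expression.

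The study measured RNA from the cerebral cortex and corpus striatum of 48 C57BL/6 mice aged 6 months, giving 96 libraries. Of the 6 genotypes, 3 lacked the Q140 allele (wild type, Msh6+/- and Msh6-/-) and 3 carried it (Q140, Q140 X Msh6+/- and Q140 X Msh6-/-), with 8 mice in each, 4 male and 4 female. Q140 is a Huntington's disease model, in which a long CAG repeat was knocked in to the mouse Htt gene. The labels name the allele Het (Q140) KI in all 3 groups that carry it, a heterozygous knock-in. Msh6 encodes a DNA mismatch repair protein, and the labels give the crosses as Msh6+/- or Msh6-/-. Each Q140 group was compared with the group of the same Msh6 genotype that lacked Q140, and both groups of such a pair carried the same Msh6 alleles.

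Libraries held between 12403528 and 22886441 counted reads. Msh6 itself was 17.4 ± 1.28 CPM (read counts scaled to library size; SD, n = 8) in wild-type striatum, 13.8 ± 1.30 in Msh6+/- and 8.09 ± 1.32 in Msh6-/-. Its range in the Msh6-/- striata, 6.93 to 11.1 CPM, did not overlap that in wild type, 14.6 to 18.4 CPM. All 14 markers of striatal projection neurons were detected in the striatum, with a summed level of 15500 to 17700 CPM in the wild-type mice. Of the markers of choroid plexus, a neighbouring tissue, 4 of 8 passed the filter, and their summed level was at most 52.4 CPM in the other striata but 2760 CPM in 1 Q140 X Msh6-/- striatum, that of mouse 21-3. Results whose call changes without this mouse are given with and without it, and no striatal call of a member changed. In the cortices of that genotype, the 3 markers that passed the filter summed to at most 4.12 CPM.

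A pair of stretches of genome are shown because they lie just upstream of the start sites of Ddit4l and Rasd2, the members with the widest differences between groups and between tissues. They are the 250 bases before the RefSeq start site on the gene's own strand, in the build GRCm38.p6. The Ddit4l stretch is chr3:137623422-137623671 on the + strand, within an intron of a longer annotated transcript. The Rasd2 stretch is chr8:75213694-75213943 on the + strand, outside the annotated gene. Capitals mark GC boxes, a short motif of many promoters.
Ddit4l: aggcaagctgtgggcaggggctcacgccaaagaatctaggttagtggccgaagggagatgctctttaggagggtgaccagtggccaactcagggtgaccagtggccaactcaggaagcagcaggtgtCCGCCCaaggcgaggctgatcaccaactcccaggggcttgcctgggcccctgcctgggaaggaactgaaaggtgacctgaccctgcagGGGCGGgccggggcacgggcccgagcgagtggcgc
Rasd2: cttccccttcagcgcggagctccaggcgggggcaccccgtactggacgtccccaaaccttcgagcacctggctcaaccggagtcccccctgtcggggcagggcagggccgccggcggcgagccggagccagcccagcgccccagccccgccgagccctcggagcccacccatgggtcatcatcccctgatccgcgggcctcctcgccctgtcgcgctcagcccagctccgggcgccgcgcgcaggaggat
Ddit4l holds 2 GC boxes (GGGCGG on either strand), beginning 123 and 35 bases before the start site, and Rasd2 holds none. This motif lies in 32.7% of 32851 mouse promoters of the same length, and in 6 of the 9 members with an entry in the RefSeq table. None of the 9 members in the table held a TATA box (TATAAA, in 12.4% of promoters), an AP-1 site (TGANTCA, 6.7%), an ATF4 composite site (TGATGCAA, 0.8%) or a glucocorticoid receptor half-site (AGAACA, 16.1%) in this window. Both strands were searched, and no match says only that these letters are absent from the window. The stretch before Rasd2 was 75.2% G or C and that before Ddit4l 65.2%, against a median of 52.4% over all promoters.

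In wild-type striatum the members spanned a wide range of expression, and Rasd2 stood far above the rest. Levels between genes were compared as FPKM, which divides by gene length. Rasd2 was at 345 ± 24.2 FPKM (SD, n = 8), with a range of 315 to 389. Sesn3 followed at 32.1 ± 2.88, Tsc2 at 25.2 ± 1.01 and Ddit4 at 23.5 ± 3.09 FPKM. The ranges of these 3 genes were 27.8 to 36.6, 24.0 to 26.6 and 18.3 to 28.8 FPKM, so Tsc2 and Ddit4 overlapped. Sesn1 (16.5 ± 1.66), Mtor (15.1 ± 0.461) and Ddit4l (13.7 ± 1.68 FPKM) came next, each overlapping its neighbour in this order. Tsc1 (10.4 ± 0.567), Rheb (7.34 ± 0.879) and Deptor (5.43 ± 0.856 FPKM) were lowest, and Rheb and Deptor did not overlap by a narrow margin, at lowest 6.36 against highest 6.34.

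**Figure D1:**
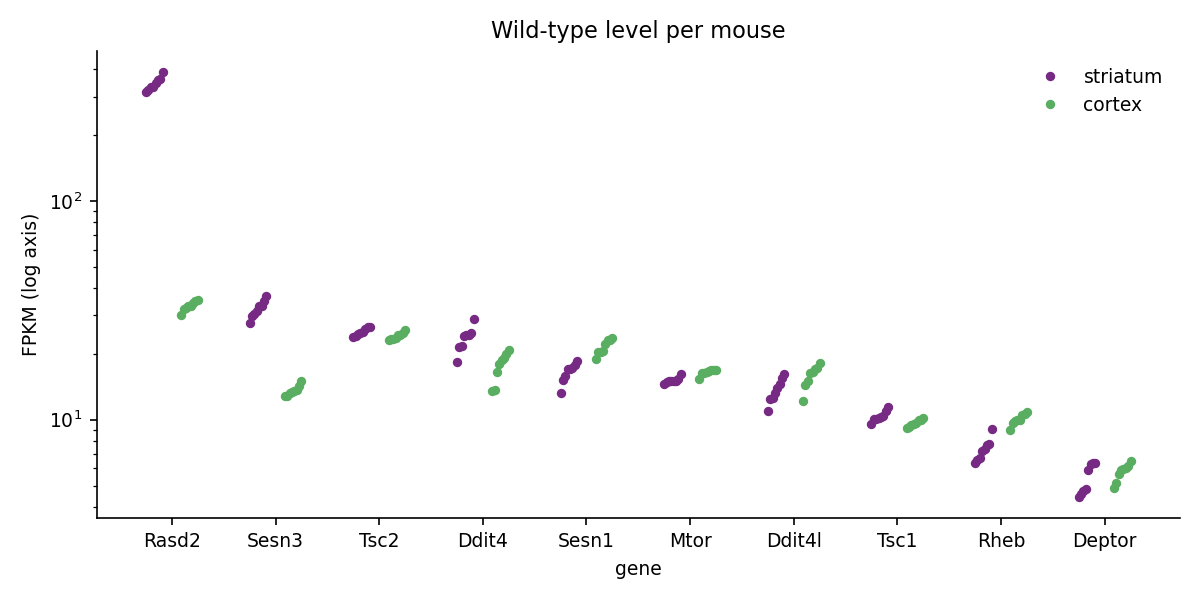
FPKM of the 10 members (log axis) in the striatum and cortex of the wild-type mice, each point a mouse in order of its value and genes ordered by their striatal mean. Rasd2 lay between 315 and 389 FPKM in striatum and between 30.0 and 35.3 FPKM in cortex, while the other 9 genes had levels of 4.45 to 36.6 FPKM over both tissues.

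The striatum and cortex of wild-type mice differed for 9 of the 10 members, where 72.4% of the 18440 genes tested differed (edgeR quasi-likelihood test, adjusted p under 0.05). Rasd2 had the widest gap, with 3.38 ± 0.05 (log2, SE) more in striatum, a 10.4-fold difference (adjusted p = 1.32e-78). Its cortical level was 33.2 ± 1.73 FPKM, near that of Sesn3 in striatum. Sesn3 was 2.37-fold higher in striatum (1.24 ± 0.04, adjusted p = 1.20e-50), and Ddit4 1.35-fold higher (0.43 ± 0.11, adjusted p = 2.20e-04). Tsc1 and Tsc2 were higher in striatum by 0.11 ± 0.03 and 0.07 ± 0.03 on the log2 scale.

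Rheb, Sesn1, Mtor and Ddit4l were lower in wild-type striatum than in cortex. The log2 differences were -0.46 ± 0.05 for Rheb, -0.39 ± 0.05 for Sesn1, -0.12 ± 0.03 for Mtor and -0.21 ± 0.08 for Ddit4l (adjusted p = 0.0192 for the last). Deptor was not called, at -0.09 ± 0.08 (adjusted p = 0.310). In Msh6-/- mice without Q140, where 72.3% of genes differed, 8 members differed between the tissues, and Rasd2 was again 10.9-fold higher in striatum. Ddit4l, at -0.18 ± 0.08, was not among them with every library as an independent sample (adjusted p = 0.0508). It was called when the 2 tissues were matched by mouse as a block (-0.18, adjusted p = 0.0196).

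Ddit4l was low in the striatum of every Q140 mouse. In wild-type striatum its level had a lowest value of 32.4, a median of 40.7 and a highest of 48.4 CPM. In Q140 striatum these were 7.91, 9.37 and 10.8 CPM. Each of the 8 Q140 mice was below each of the 8 wild-type mice. The share of all genes whose groups separate fully is not given here. Such separations are therefore descriptions, for this and the other members. The difference was -2.15 ± 0.08 on the log2 scale, a level of 0.225 of wild type, and its position was 10 among the falls of 17503 genes. In this comparison 29.7% of genes were called by the edgeR test. In absolute reads, the wild-type striata held 617 to 905 Ddit4l reads each and the Q140 striata 149 to 216.

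The same low level was found in the Msh6+/- and Msh6-/- backgrounds. In Msh6+/- striatum Ddit4l ranged from 32.5 over a median of 39.6 to 44.2 CPM, and in Q140 X Msh6+/- from 7.26 over 9.49 to 10.1 CPM. In Msh6-/- striatum it ranged from 32.1 over 43.1 to 50.5 CPM, and in Q140 X Msh6-/- from 7.74 over 8.48 to 11.1 CPM. The paired groups were again fully apart in both crosses. The differences were -2.09 ± 0.08 and -2.23 ± 0.08 on the log2 scale, or 0.235 and 0.214 of the control level. These values chose the gene and have no test. Among all genes 31.2% were called in the Msh6+/- comparison and 33.0% in the Msh6-/- comparison.

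In cortex Ddit4l was lower in the Q140 groups by a much smaller amount, and the groups overlapped. Wild-type cortex ranged from 35.7 over a median of 48.2 to 53.7 CPM and Q140 cortex from 33.1 over 38.9 to 46.6 CPM. Msh6+/- cortex ranged from 36.5 over 45.3 to 55.8 CPM and Q140 X Msh6+/- from 29.4 over 37.8 to 40.5 CPM. Msh6-/- cortex ranged from 40.5 over 46.2 to 58.5 CPM and Q140 X Msh6-/- from 26.0 over 35.0 to 47.7 CPM. All 8 Q140 mice in the first pair and all 8 in the next were below their control mean, and 7 of 8 in the last. In that last pair the same 7 mice were below every control.

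Ddit4l was the only member called in any cortical comparison of Q140 with control, and it was called in 1 of the 3. In the Msh6-/- background it fell by 0.42 ± 0.09 on the log2 scale (edgeR adjusted p = 0.0266), where 0.136% of 17622 genes were called. In the Msh6+/- background the difference was -0.37 ± 0.09 (adjusted p = 0.0767, with 0.193% of genes called), and in Msh6+/+ it was -0.26 ± 0.09 (adjusted p = 0.554, with 0.0170% called). At an unadjusted p under 0.05 there were 3 members in Msh6+/+ and 2 in Msh6+/-, and DESeq2 called none in either. Of all 17622 genes, 1081 and 2094 were under the same unadjusted p. The call in Msh6-/- was not kept without mouse 21-3 (-0.43, adjusted p = 0.0526) or when only its 2 groups were fitted (-0.42, adjusted p = 0.104). It was also lost on the FPKM scale (-0.39, adjusted p = 0.0846). The difference between Msh6 backgrounds was not called, at -0.16 ± 0.13 for Msh6-/- and -0.11 ± 0.13 for Msh6+/- (adjusted p = 1.000 and 0.957).

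**Figure D2:**
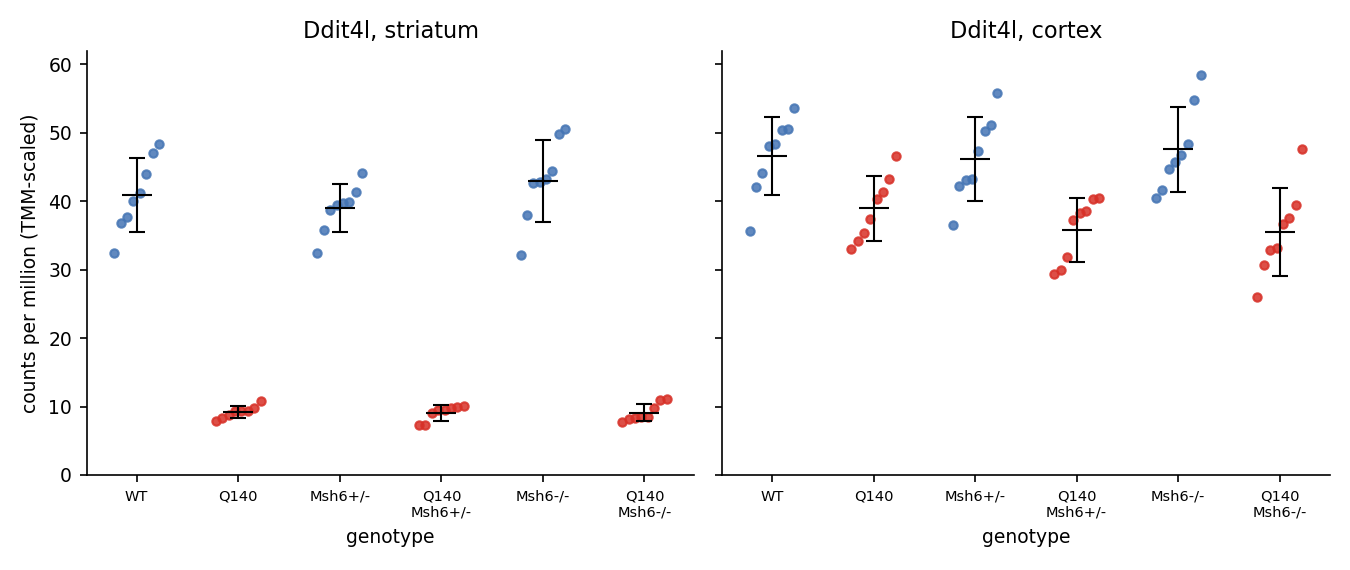
Ddit4l in TMM-scaled CPM (linear axis from 0) by genotype in striatum (left) and cortex (right), each point a mouse in order of its value, blue without and red with Q140, bars mean ± SD of 8 mice. The striatal Q140 mice lie between 7.26 and 11.1 CPM and the striatal controls between 32.1 and 50.5 CPM, while the cortical groups overlap.

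Rasd2, the gene of Rhes, was lower in all 3 Q140 striatal groups. Paired groups did not overlap, a description with no share of all genes beside it. Wild-type striatum ranged from 1010 over a median of 1120 to 1290 CPM, and Q140 striatum from 775 over 811 to 868 CPM. The difference, described without a test, was -0.46 ± 0.05 on the log2 scale, or 0.725 of wild type. In the Msh6+/- background the controls ranged from 1050 over 1110 to 1310 CPM and the Q140 mice from 752 over 806 to 845 CPM. Rasd2 fell there by 0.49 ± 0.05 (edgeR adjusted p = 1.54e-12). In the Msh6-/- background the controls ranged from 933 over 1190 to 1310 CPM and the Q140 mice from 743 over 823 to 864 CPM. The fall was 0.52 ± 0.05 (adjusted p = 2.96e-13).

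Even after this fall Rasd2 was the most abundant member in striatum. The Q140 striata held 263 ± 10.1 FPKM of Rasd2 (SD, n = 8), and the gene was still 7.90-fold higher in striatum than in cortex of the same Q140 mice. In cortex its Q140 differences were -0.06 ± 0.04, 0.07 ± 0.04 and 0.03 ± 0.04 in the 3 Msh6 backgrounds, none of them called.

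Deptor, the direct mTOR inhibitor, had the widest striatal difference after Ddit4l. It ranged from 39.8 over 49.3 to 58.6 CPM in wild-type striatum and from 27.1 over 31.1 to 40.2 CPM in Q140, where 7 of 8 mice were below every wild-type mouse. That difference was -0.67 ± 0.08 on the log2 scale. In Msh6+/- striata it ranged from 40.7 over 48.4 to 58.1 CPM against 25.7 over 29.8 to 34.6 CPM with Q140, and in Msh6-/- from 35.8 over 47.7 to 53.3 against 24.8 over 29.9 to 34.7 CPM. Neither of these pairs overlapped, again a description. Deptor fell by 0.74 ± 0.08 in Msh6+/- (edgeR adjusted p = 3.38e-10) and by 0.63 ± 0.08 in Msh6-/- (adjusted p = 1.71e-08). Its cortical differences were between -0.07 and 0.00. A small share of its exonic bases, 3.41%, is shared with Gm9920 on the opposite strand. Whether the authors' counting used strand is not given in the sources used here.

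Sesn3 fell less. It ranged from 442 over 504 to 563 CPM in wild-type striatum and from 407 over 442 to 465 CPM in Q140, a difference of -0.19 ± 0.04 with overlapping groups. The Msh6+/- striata ranged from 448 over 520 to 552 CPM and the Q140 X Msh6+/- striata from 384 over 434 to 463 CPM. In the Msh6-/- pair the ranges were 474 over 518 to 537 CPM and 407 over 426 to 478 CPM. All 8 Q140 mice were below the control mean in each background. Sesn3 fell by 0.27 ± 0.04 in Msh6+/- and 0.24 ± 0.04 in Msh6-/- (edgeR adjusted p = 2.04e-06 and 1.53e-05). Its relative Sesn1 had differences of -0.07 ± 0.05, -0.04 ± 0.05 and -0.06 ± 0.05 in Msh6+/+, Msh6+/- and Msh6-/-, and was not called in the last 2.

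Tsc1, a subunit of the complex that switches Rheb off, fell by the least. It ranged from 117 over 125 to 136 CPM in wild-type striatum and from 109 over 119 to 123 CPM in Q140, a difference of -0.11 ± 0.03. The Msh6+/- controls ranged from 124 over 129 to 135 CPM and their Q140 mice from 105 over 115 to 121 CPM, without overlap. The Msh6-/- controls ranged from 120 over 128 to 135 CPM and their Q140 mice from 112 over 115 to 129 CPM, with 7 of 8 below every control. Tsc1 fell by 0.18 ± 0.03 in Msh6+/- and 0.14 ± 0.03 in Msh6-/- (edgeR adjusted p = 3.54e-06 and 1.76e-04). On the FPKM scale the Msh6-/- difference was -0.06 (limma-trend, adjusted p = 0.0637). Its partner Tsc2 was at 0.03 ± 0.03, -0.00 ± 0.03 and 0.02 ± 0.03 in the 3 backgrounds, and 7.20% of its exonic bases are shared with Pkd1 on the opposite strand.

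**Figure D3:**
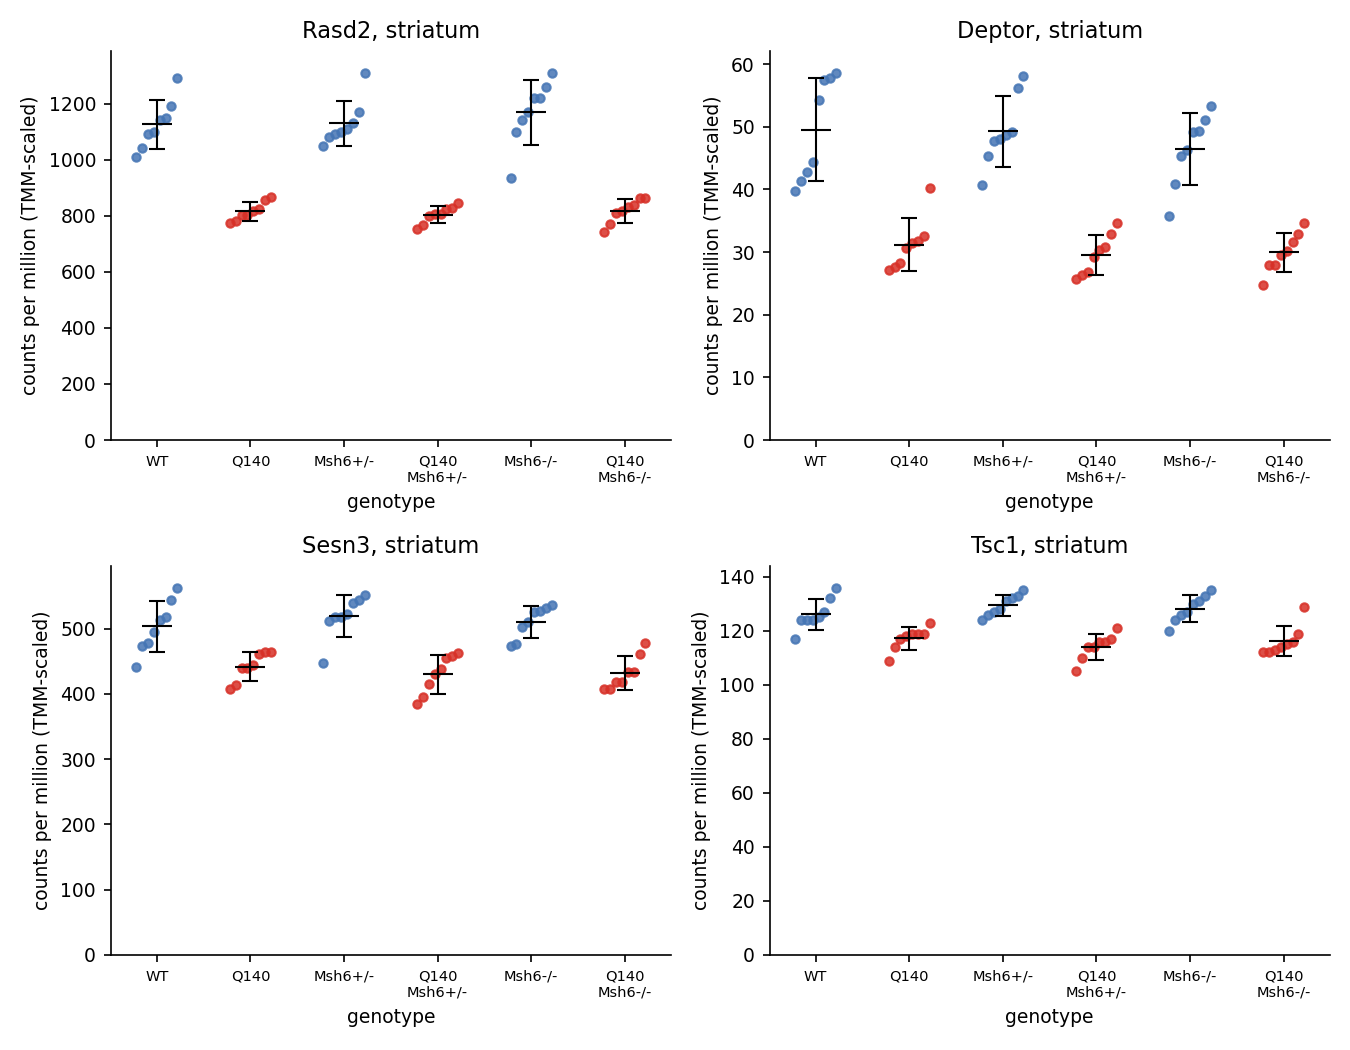
Rasd2, Deptor, Sesn3 and Tsc1 in striatum in TMM-scaled CPM (linear axes from 0) by genotype, each point a mouse in order of its value, blue without and red with Q140, bars mean ± SD of 8 mice. Rasd2 is at 743 to 868 CPM in the Q140 mice and 933 to 1310 CPM in the others, whereas the Sesn3 and Tsc1 groups lie closer together.

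Ddit4, Rheb, Mtor, Tsc2 and Sesn1 were not called in the Q140 striata of the Msh6+/- and Msh6-/- backgrounds on the count scale. Ddit4, the closest relative of Ddit4l, ranged from 31.8 over 42.1 to 50.6 CPM in wild-type striatum and from 29.1 over 33.2 to 47.5 CPM in Q140. Its differences were -0.22 ± 0.11, 0.05 ± 0.11 and -0.19 ± 0.11 in Msh6+/+, Msh6+/- and Msh6-/-. The last 2 had adjusted p = 0.764 and 0.195, with 95% intervals of -0.16 to 0.27 and -0.41 to 0.03. Rheb was at -0.06 ± 0.07, 0.08 ± 0.07 and 0.14 ± 0.07. Rheb lies on chromosome 5 (24802823 to 24842624, GRCm38), 9.92 megabases from Htt, and whether sequence linked to the knocked-in allele bears on its level was not tested.

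Mtor itself had Q140 differences of 0.06 ± 0.03, 0.05 ± 0.03 and 0.06 ± 0.03 in striatum, and was not called in the 2 tested backgrounds (edgeR adjusted p = 0.162 and 0.0549). On the FPKM scale it was called in both, at 0.10 and 0.13 (limma-trend, adjusted p = 2.55e-04 and 1.01e-05). There Tsc2 (0.09, adjusted p = 0.00844) and Rheb (0.19, adjusted p = 0.00764) were also called in Msh6-/-. The FPKM values divide by the total count with no correction for composition, and with them 74.6% and 77.1% of called genes were higher in the Q140 striata of the Msh6+/- and Msh6-/- backgrounds, against 52.1% and 54.0% on the count scale. In Msh6+/+ these shares were 78.1% and 52.3%.

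With Ddit4l left aside, 4 of the other 9 members (Rasd2, Deptor, Sesn3 and Tsc1) fell and none rose in the Msh6+/- and Msh6-/- striata. There 31.2% and 33.0% of all genes were called, of which 14.9% and 15.2% of all genes fell and 16.3% and 17.8% rose. The median difference of the 10 members, Ddit4l included, was -0.11 in Msh6+/- and -0.17 in Msh6-/-, where the median of all genes was 0.014 and 0.016. In Msh6+/+ the same medians were -0.15 and 0.014. The member medians are a description, since Ddit4l was chosen by its striatal fall and the others with earlier results known. The positions of Rasd2 among the falls in Msh6+/- and Msh6-/- were 686 and 596 of 17503, those of Deptor 253 and 364.

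**Figure D4:**
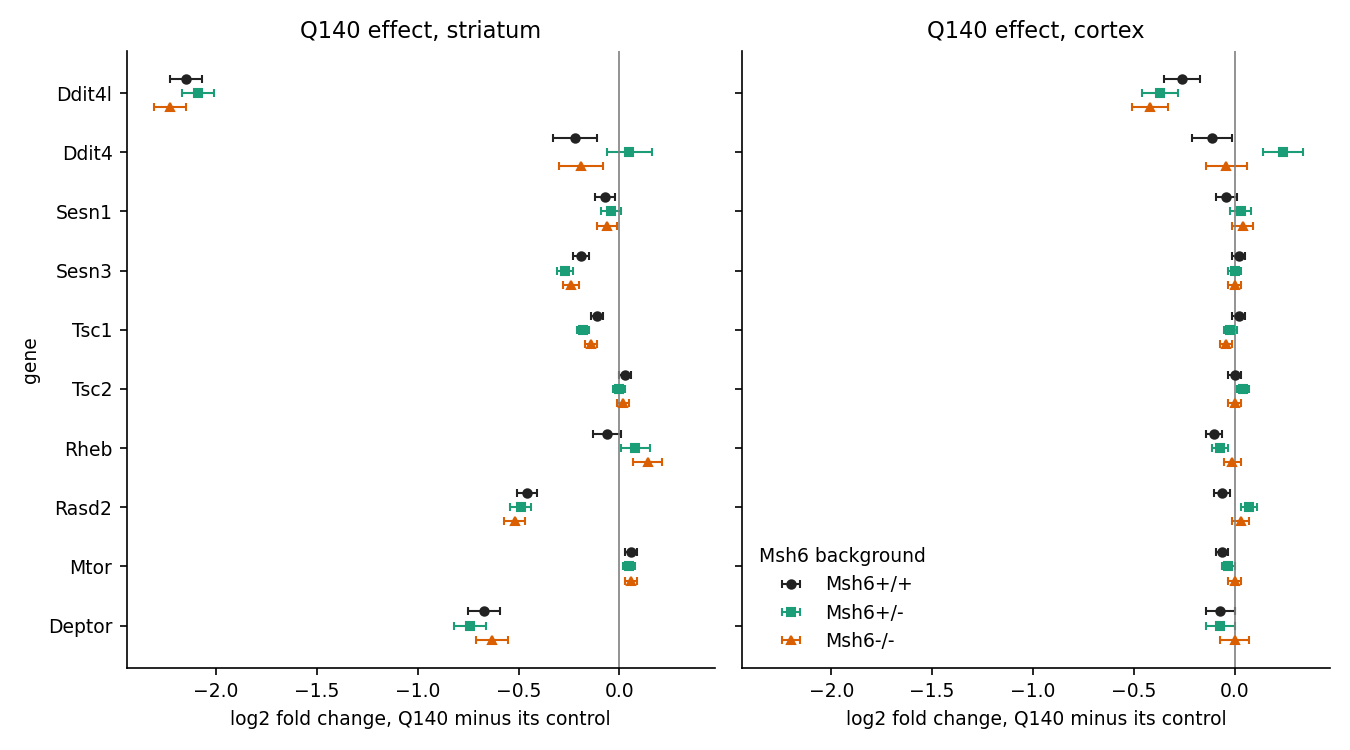
Log2 fold change of Q140 against its control (points, ± SE) for the 10 members in striatum (left) and cortex (right), with 1 marker for each Msh6 background, each from 8 against 8 mice. In striatum Ddit4l lies between -2.23 and -2.09 and Deptor between -0.74 and -0.63, while in cortex Ddit4l alone lies beyond -0.25.

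Striatal samples hold many cell types, and in bulk RNA fewer cells of a type and less RNA per cell cannot be told apart. The summed level of the 14 projection neuron markers was 15500 to 17700 CPM in wild-type and 9520 to 10100 CPM in Q140 striatum. It was 15800 to 18000 against 9250 to 10100 CPM in the Msh6+/- pair and 14800 to 18600 against 9270 to 10300 CPM in the Msh6-/- pair. Of these markers 12 fell and 1 rose in each background, with medians of -0.65, -0.65 and -0.66, and none was at 0. Of all genes, 14.2%, 14.9% and 15.2% fell in Msh6+/+, Msh6+/- and Msh6-/-, and 15.5%, 16.3% and 17.8% rose. The astrocyte, microglial and endothelial lists, of 8 markers each, had medians between -0.08 and -0.23, and 3 to 7 members of each list fell. The oligodendrocyte list, also of 8, had medians of -0.01, -0.21 and -0.26 in Msh6+/+, Msh6+/- and Msh6-/-, with 2, 4 and 5 markers lower. Its summed level was 5150 to 6810 CPM in wild-type and 4220 to 6220 CPM in Q140 striatum, 5430 to 7070 against 4400 to 5390 CPM in the Msh6+/- pair and 5950 to 7620 against 4860 to 5490 CPM in the Msh6-/- pair, so only the first pair overlapped. Markers of cortical glutamatergic neurons had medians of 0.32, 0.34 and 0.67, with 3, 2 and 3 of 7 tested higher and 1 lower in Msh6-/-. Their summed level was low and overlapped in each pair, at 31.8 to 44.3 CPM in the striata without Q140 and 33.9 to 51.1 CPM with it. The summed level of the interneuron list overlapped, at 1340 to 1570 CPM in wild-type and 1370 to 1470 CPM in Q140 striatum. This list includes Gad1 and Gad2, which are not limited to interneurons. Ddit4l, at -2.09 to -2.23, was further down than these medians, and Rasd2, at -0.46 to -0.52, was less far down than the projection neuron median. The part of these cell type shifts in the members' differences was not tested.

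The striatal Q140 effect was set against the cortical one in a fit of all 96 libraries, a comparison added after the files were seen. It uses the same striatal libraries, and the members were chosen with earlier results known. Its p-values are therefore not independent of that choice. Rasd2, Deptor and Sesn3 differed between the tissues in both crosses, where 18.2% (Msh6+/-) and 16.6% (Msh6-/-) of 18440 genes did. The Rasd2 effect was lower in striatum than in cortex by 0.56 ± 0.06 in Msh6+/- and by 0.55 ± 0.06 in Msh6-/- on the log2 scale (edgeR adjusted p = 1.66e-11 and 4.23e-11). For Deptor the tissue difference was -0.67 ± 0.11 and -0.63 ± 0.11 (adjusted p = 4.00e-06 and 1.21e-05). For Sesn3 it was -0.26 ± 0.05 and -0.24 ± 0.05 (adjusted p = 9.04e-05 and 4.79e-04). Tsc1 differed in Msh6+/- (-0.15 ± 0.04, adjusted p = 0.00629) but was not called in Msh6-/- (-0.10 ± 0.04, adjusted p = 0.127). Of the called genes 54.4% and 53.6% were higher on this scale, against 72.0% and 74.1% with log2(FPKM + 1) and, in Msh6-/-, 43.5% with RLE scaling. For Ddit4l the tissue difference was -1.71 ± 0.13 and -1.80 ± 0.13, given as a description.

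Within Q140 mice of the Msh6+/+ background, where 70.8% of genes differed between striatum and cortex, Ddit4l was lower in striatum by 2.10 ± 0.10 on the log2 scale, a description, against 0.21 in wild type. Deptor was lower in Q140 striatum than in Q140 cortex by 0.69 ± 0.08. Mtor and Tsc1 differed between the tissues of Q140 mice by 0.01 ± 0.03 and -0.01 ± 0.03. These values are also descriptions, since the members were chosen with earlier results of these data known. Whether these gaps differed from those in wild type was not tested in the Msh6+/+ background.

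No member was called in a comparison of Msh6 genotypes, with or without Q140. The tests set Msh6+/- and Msh6-/- against Msh6+/+, with and without Q140. In striatum, 0.0114% of genes were called for Msh6+/- and 0.0971% for Msh6-/- without Q140, and 0.00571% and 0.177% with it. In cortex, 0.00567% and 0.131% were called without Q140, and 0.0113% and 0.153% with it. The count of members was 0 in these 8 comparisons by edgeR and by DESeq2. At an unadjusted p under 0.05 there were 5 member values in all. They were Rasd2 (0.09 and 0.08) and Rheb (0.08) in Q140 cortex, Rheb (0.15) in Q140 striatum, and Ddit4 (-0.22) in cortex without Q140. Between 581 and 1388 genes, of 17503 in striatum or 17622 in cortex, were under that p in each comparison.

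For Ddit4l the Msh6-/- difference was 0.07 ± 0.07 in striatum without Q140 and -0.01 ± 0.09 with it, with 95% intervals of -0.07 to 0.21 and -0.19 to 0.17. For Rasd2 these were 0.06 ± 0.05 and 0.00 ± 0.05, with intervals of -0.03 to 0.14 and -0.09 to 0.09. The test of whether the Q140 effect itself differed with Msh6 genotype called no member in cortex by edgeR or DESeq2. In striatum it called none either, with Ddit4l left aside. By edgeR 0% of genes were called in all 4 tests. At an unadjusted p under 0.05 there were 3 member values. They were Ddit4 (0.35 ± 0.14) and Rasd2 (0.13 ± 0.06) for Msh6+/- in cortex and Rheb (0.20 ± 0.09) for Msh6-/- in striatum. Between 692 and 911 genes, of 17503 in striatum or 17622 in cortex, were under that p in each test. The striatal Ddit4l interaction was 0.06 ± 0.12 for Msh6+/- and -0.08 ± 0.12 for Msh6-/-, given as a description.

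Rasd2 was higher in females than in males in cortex. The mean over all genotypes was 110 ± 5.64 CPM in females and 101 ± 6.26 CPM in males (SD, n = 24 each), and the female mean was higher in 6 of 6 genotypes. The difference was 0.13 ± 0.02 on the log2 scale (edgeR adjusted p = 1.11e-04), and 6.31% of genes differed by sex in this tissue. In striatum the same difference was 0.04 ± 0.03 (adjusted p = 0.395). No member was called by sex in striatum, where 5.54% of genes were. There 3 members had an unadjusted p under 0.05, as had 3525 of all 17503 genes. No other member was called in cortex.

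Ddit4 was the member whose level most followed the mouse. With genotype and sex fitted in each tissue, the remaining log2 CPM of cortex and striatum of the same 48 mice had a Pearson r of 0.75 for Ddit4 and a Spearman rho of 0.73. Both had permutation p = 1e-05, the smallest that 100000 resamples can give, and 1.00e-04 after adjustment over the 10 members. Without the 2 mice farthest from the cortical median, r was 0.70. For Sesn1 r was 0.45 (rho 0.52, adjusted permutation p = 0.00620), for Rheb 0.43 (rho 0.41, adjusted p = 0.00873) and for Rasd2 0.34 (rho 0.33, adjusted p = 0.0463 for r and 0.0585 for rho, two-sided permutation tests). Without the 2 farthest mice these were 0.33, 0.33 and 0.30. With library size and the first number of the animal's name also fitted, Ddit4 and Rheb remained called, while Sesn1 (0.33, adjusted permutation p = 0.0781) and Rasd2 (0.23, adjusted p = 0.274) did not. Ddit4l had r = 0.08 (rho 0.04, adjusted permutation p = 0.752). Over 16806 genes, the residuals of a mouse's tissues also deviated together, with a median r of 0.15. The share of all genes with such a relation is not given here, so these calls cannot be read as particular to the members.

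**Figure D5:**
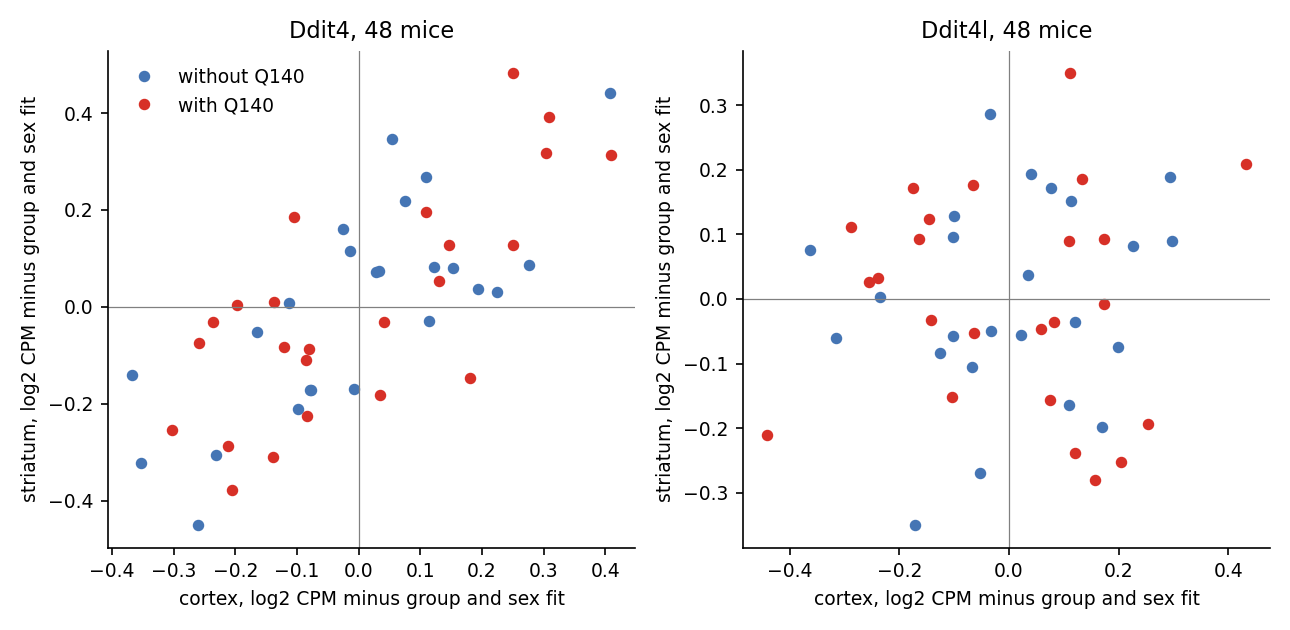
Cortical (x axis) against striatal (y axis) log2 CPM of Ddit4 (left) and Ddit4l (right) in 48 mice after genotype and sex were fitted within each tissue, each point a mouse, blue without and red with Q140. The Ddit4 points lie along a diagonal, with r of 0.75, and the Ddit4l points are spread over all corners of the plot, with r of 0.08.

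The genes whose striatal levels moved most like 3 of the members over the 48 striata, after genotype and sex, were sought among 14065 genes. For Ddit4 they were Nfkbia (r = 0.82), which encodes an inhibitor of NF-kappaB, Arrdc2 (0.80), an arrestin-domain protein, and Trp53inp1 (0.78), a stress protein induced by p53. For Ddit4l they were Pde1b (0.65), a phosphodiesterase, Cap1 (0.63), an actin regulator, and Itpr1 (0.61), a calcium channel of the endoplasmic reticulum. For Rasd2 they were Syndig1l (0.87), Man2a2 (0.83) and Rasl10b (0.82), the last a Ras-like GTPase. These r values share libraries and depth and are a description. Pde1b was at 1880 ± 92.4 CPM in wild-type and 1220 ± 10.2 CPM in Q140 striatum, while Nfkbia was at 21.7 ± 4.85 and 22.1 ± 4.66 CPM.

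By Pearson's r over the 12 means of tissue and genotype, the nearest genes to Ddit4l were Wbscr17, Ahcyl1 and Epb41l1. Those nearest to Rasd2 were Smpd3, Ppp1r1b and Kazn. The 12 means fall into separate clusters for both members, so no r is given. Wbscr17 was at 57.4 ± 2.95 CPM in wild-type and 39.3 ± 3.11 CPM in Q140 striatum, and at 56.4 ± 3.89 and 56.2 ± 5.09 CPM in cortex. Ppp1r1b, which encodes the dopamine signalling protein DARPP-32 and is 1 of the 14 projection neuron markers, was at 2480 ± 127 CPM in wild-type and 1560 ± 61.2 CPM in Q140 striatum, and at 78.6 ± 6.06 CPM in wild-type cortex.

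Of 94 other genes of the pathway and its inputs, 19 rose and 10 fell in Q140 X Msh6+/- striatum and 19 rose and 13 fell in Q140 X Msh6-/- striatum, shares near the 31.2% and 33.0% of all genes called. Their medians were 0.02 and 0.03, near those of all genes. In cortex the Q140 count was 0 of 94 in all 3 backgrounds by edgeR. Among subunits of the mTOR complexes, 0 of 9 were called in Msh6+/- and 3 in Msh6-/-, 2 higher and 1 lower. Of 28 amino acid sensing genes, 8 rose and 3 fell in Msh6+/-, and 6 rose and 1 fell in Msh6-/-. Of 12 growth factor input genes, 2 rose and 3 fell in both. These lists are small, and their counts are read against the same 31.2% and 33.0%.

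The 4 pathway genes with the smallest adjusted p included Akt2 and Rragd in both crosses. Akt2, a kinase between insulin receptors and mTOR, fell by 0.40 ± 0.03 in Msh6+/- and 0.37 ± 0.03 in Msh6-/- (edgeR adjusted p = 1.63e-13 and 1.45e-12). Its level was 124 ± 7.15 CPM in Msh6+/- and 93.9 ± 3.68 CPM in Q140 X Msh6+/- striatum (SD, n = 8). Rragd, a Rag GTPase that recruits mTOR complex 1 to the lysosome, fell by 0.39 ± 0.05 and 0.38 ± 0.05. Its relative Rragb rose by 0.31 ± 0.04 in Msh6-/-. Prkab2, a regulatory subunit of the energy sensor AMPK, rose by 0.22 ± 0.03 and 0.25 ± 0.03. Ulk1, a kinase that starts autophagy and is an mTOR substrate, rose by 0.22 ± 0.04 in Msh6+/-.

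Other groups were small and mixed, again with 31.2% (Msh6+/-) and 33.0% (Msh6-/-) of all genes called. Of 8 genes of the integrated stress response, 2 rose and 2 fell in both crosses. Of 8 glucocorticoid response genes, 1 rose and 1 fell in Msh6+/-, and 3 fell in Msh6-/-. Of 15 mTOR outputs, 3 rose and 1 fell in Msh6+/-, and 3 rose and 2 fell in Msh6-/-. Between the tissues of wild-type mice, 27 of the 94 genes were higher in striatum and 38 lower, where 72.4% of all genes differed, led by Irs1, an insulin receptor substrate, at -1.96 ± 0.07, and Rragd at 1.16 ± 0.04. No Msh6 comparison called any of the 94.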

How the data were processed

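RNA was extracted with a Qiagen RNeasy kit and sequenced from Illumina TruSeq stranded libraries, per the labels' protocols. Reads were processed with STAR 2.7.5c, SAMtools 1.10 and HTSeq 0.12.3 on GRCm38/mm10, per the submitters' processing notes; no source used here gives the annotation release or the strand setting. The authors deposited raw read counts per gene and FPKM values, and the latter equalled the count divided by a fixed gene length and the column total for 34661 of 34661 genes with values (tolerance 0.001).

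The members and gene lists were chosen with earlier results of these data known. Counts were filtered in each tissue (filterByExpr, minimum count 10, minimum total 15), scaled by TMM and tested with edgeR 4.0.16 (quasi-likelihood, R 4.3.3) with a term per genotype and sex, and p-values were adjusted by Benjamini-Hochberg over all genes of a comparison at a threshold of 0.05. Tissue comparisons used 1 fit of all 96 libraries. An SE is the size of the log2 fold change over the square root of F. Alternatives were RLE scaling, no filter, DESeq2 1.42.0, limma-trend 3.58.1 on log2(FPKM + 1) or log2(FPKM + 0.1), no sex term, the first number of the animal name as a covariate, only the 2 groups compared, mouse 21-3 left out, and the mouse as a block. The last rests on the labels, which give both tissues of a mouse 1 animal number. Over 16806 genes the residuals of a mouse's tissues had a median r of 0.15 (-0.04 to 0.26), against -0.00 between different mice, and 39 of 48 mice matched best with themselves. The edgeR fit was tested on simulated data with known answers, where large changes were called and most small ones were missed. The simulation gave all genes the same spread and changed far fewer genes than were called in striatum. Its share of missed changes is therefore not that of these data. No pair of libraries of a group was as alike as repeat counts of 1 library (chi-square per gene at least 2.80, where 1 is expected). Named genes were the members, up to 4 called pathway genes per comparison by adjusted p, and the 3 most alike genes; 1 gene that this rule names is not reported here. Coordinates are from GENCODE M21 on GRCm38 and promoter stretches from RefSeq on GRCm38.p6, where 9 of 10 members had an entry (Deptor is named only).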

Additional observations from a re-analysis of the deposited data

Results flagged for a closer look

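Within the 120 groups of 8 mice (10 genes, 6 genotypes, 2 tissues), 10 held a mouse standing apart from the others by the gap to its neighbour; chance alone marks about 1 in 20 groups. Mouse 19-3 (Q140) was highest of its group for striatal Ddit4 (47.5 CPM, next 37.2) and striatal Sesn1 (61.9, next 55.0), and lowest for cortical Deptor (34.0, next 49.0). Mouse 26-3 (Msh6+/-) was highest for striatal Rasd2 (1310, next 1170) and lowest for striatal Sesn3 (448, next 512). Mouse 18-5 (Q140) was highest for striatal Deptor (40.2 CPM, next 32.5), the value that overlapped the wild-type range. Mouse 32-4 (Q140 X Msh6-/-) was highest for striatal Tsc1 (129, next 119) and mouse 25-2 of the same genotype for cortical Tsc1 (122, next 115). Mouse 13-2 (wild type) was lowest for cortical Mtor (157, next 166) and mouse 15-1 (Q140 X Msh6+/-) for cortical Sesn3 (181, next 207).

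The Q140 effect differed between striatum and cortex, by the test of that difference on the log2 scale, for 4 members in Msh6+/- and 3 in Msh6-/-, with Ddit4l left aside and the libraries of a mouse taken as independent. With the mouse as a block Rheb was also called in Msh6+/- (0.16, adjusted p = 0.0478). The members were chosen with earlier results known, so these calls are not independent of that choice. In Msh6+/- the differences were -0.56 for Rasd2, -0.67 for Deptor, -0.26 for Sesn3 and -0.15 for Tsc1. In Msh6-/- they were -0.55 for Rasd2, -0.63 for Deptor and -0.24 for Sesn3. Tsc1 in Msh6+/- was lost on the FPKM scale (-0.10, limma-trend adjusted p = 0.0749), where Mtor and Rheb were called in both crosses.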

How the results depend on the processing

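Over the alternatives, 2170 values of members were recomputed: 2131 kept their direction and side of the threshold where called, 13 lost a call, 26 gained one and 0 reversed a called direction. Of the cortical Q140 counts, that in Msh6-/- went from 1 member to 0 without mouse 21-3, with FPKM + 1, with FPKM + 0.1 and with only the 2 groups, and that in Msh6+/- from 0 to 1 without the filter (Ddit4l, -0.37, adjusted p = 0.0252). In the relation between tissues of a mouse, Rasd2 (0.23) and Sesn1 (0.33) lost their call with library size and animal number fitted. The cause was not tested. With the mouse as a replicate block, Ddit4l between tissues of Msh6-/- mice (-0.18, adjusted p = 0.0196) and Rheb in the tissue difference of the Q140 effect in Msh6+/- (0.16, adjusted p = 0.0478) gained a call, and the block changed no other member's call. The FPKM alternatives gave most other gains (Mtor, Tsc2, Rheb) and losses (Tsc1). The Q140 striata held 93 to 219 Ddit4l reads each, which bounds the counting precision there.

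Counts over all genes moved by over 1.5 times in 8 comparisons. For Q140 in cortex they were 3 (1 to 8) in Msh6+/+, 34 (9 to 124, the last with DESeq2) in Msh6+/- and 24 (14 to 29, 15 without mouse 21-3) in Msh6-/-. For Msh6-/- in Q140 striatum the count was 31 (12 to 50, 14 without mouse 21-3), for its striatal interaction with Q140 it was 0 (1 with DESeq2), and for Msh6+/- it was 2 (0 to 2) in striatum without Q140, 1 (1 to 2) in cortex without and 2 (1 to 3) with Q140.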

Other observations

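By sex, 2 of 94 pathway genes were higher and 5 lower in female striatum, where 5.54% of all genes differed, and 1 was higher and 4 lower in female cortex, where 6.31% did (edgeR). These shares are near those of all genes. Akt2 was higher in females in both tissues, by 0.09 ± 0.02 and 0.11 ± 0.03 on the log2 scale (adjusted p = 0.00453 and 0.0128). Nprl3 (-0.11 ± 0.02) and Eif4b (-0.06 ± 0.01) were lower in female striatum, and Prkab1 (-0.15 ± 0.04) in female cortex.

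The Q140 effect on 12 pathway genes was higher and on 4 lower in striatum than in cortex in Msh6+/-, and on 11 higher and 4 lower in Msh6-/- (edgeR, 96 libraries), near the 18.2% and 16.6% of all genes called. Akt2 (-0.49 ± 0.06 and -0.32 ± 0.06) and Rragd (-0.35 ± 0.06 and -0.31 ± 0.06) were lower in both. Depdc5, a subunit of the GATOR1 complex that inhibits mTOR complex 1, was higher in both (0.23 ± 0.05 and 0.22 ± 0.05). Rhebl1, a relative of Rheb, was higher in Msh6+/- (0.57 ± 0.12), and Rragb in Msh6-/- (0.32 ± 0.06).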
